A study of Mus musculus with 4 samples.

Results

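Open chromatin was examined around 9 genes that encode transcription factors of epidermal terminal differentiation, namely Klf4, Grhl1, Grhl3, Ovol1, Zfp750, Prdm1, Gata3, Cebpa and Cebpb. Peaks of 4 ATAC-seq libraries were merged wherever they shared at least 1 bp, which gave 82641 regions, and the regions that overlapped one of the 9 gene bodies or the 50 kb on either side of it were kept. This left 142 regions, of which 32 lay within 2 kb of an annotated transcription start site and 110 lay farther away. The start site nearest to the region belonged to one of the 9 genes in 43 cases and to another gene in the other 99, so most of the regions are members by distance alone.

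The libraries came from keratinocytes of mice whose shaved abdominal skin had received a daily cream with 5% imiquimod (Aldara) for 8 days, and 2 were Wild Type (WT) and 2 Mapk8-KO. Mapk8 encodes the kinase JNK1, and per the study's methods the Mapk8-KO mice carried a floxed Mapk8 gene together with a Cre recombinase under the keratin 14 promoter, so that the deletion is meant for keratin 14-expressing epithelia, while the controls were littermates on a C57BL/6 background, female and adult. Epithelial cells with high surface CD49f, an integrin of basal keratinocytes, were sorted as EpCAM+ cells from dissociated skin, so the upper layers in which most of these factors act are not what the gate favours. No library from untreated skin was analysed here, and all values below describe imiquimod-treated cells. In bulk chromatin, fewer cells with an open site and less opening per cell cannot be told apart.

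As background, keratinocytes leave the basal layer, stop dividing and build a cornified barrier under the control of a small network of transcription factors. Klf4 is a zinc finger factor needed for the skin barrier, and Grhl1 and Grhl3 are grainyhead-like factors that act on desmosome genes and on barrier closure. Ovol1 is a zinc finger repressor that limits growth as cells differentiate, Zfp750 works with Klf4 in the late program, and Prdm1 (Blimp1) is a repressor of the outermost living cells. Gata3 is best known from the hair follicle inner root sheath and the barrier lipids, and Cebpa and Cebpb are leucine zipper factors that take part in the exit from the basal state. JNK1 phosphorylates c-Jun, a subunit of the dimeric factor AP-1, which recognises the letters TGAGTCA or TGACTCA.

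The following sequences are the 201 bp around the strongest summit of 7 regions on which the comparisons turn, in mm10 and on the forward strand, with motif matches in capitals. For Klf4, Ovol1, Zfp750 and Cebpa they show the best placed region outside promoters, where this region held a searched motif. For Grhl3 and Cebpb they show the regions that ranked differently between the genotypes and held a motif, and the second Ovol1 sequence is a WT-specific region with an AP-1 match. The intervals are chr4:55514805-55515005 for Klf4, chr19:5529499-5529699 for the distal Ovol1 region, chr11:121485739-121485939 for Zfp750, chr7:35076730-35076930 for Cebpa, chr4:135575488-135575688 for Grhl3, chr2:167718710-167718910 for Cebpb and chr19:5517765-5517965 for the WT-specific Ovol1 region.
Klf4 distal region: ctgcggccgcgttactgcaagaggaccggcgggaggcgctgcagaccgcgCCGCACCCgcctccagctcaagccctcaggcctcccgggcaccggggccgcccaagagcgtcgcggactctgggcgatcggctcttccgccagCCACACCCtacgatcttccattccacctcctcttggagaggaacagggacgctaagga
Ovol1 distal region: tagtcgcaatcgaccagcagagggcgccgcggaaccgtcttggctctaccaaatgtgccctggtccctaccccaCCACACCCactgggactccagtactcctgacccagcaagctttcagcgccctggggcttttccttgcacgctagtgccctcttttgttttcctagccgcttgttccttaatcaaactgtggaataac
Zfp750 distal region: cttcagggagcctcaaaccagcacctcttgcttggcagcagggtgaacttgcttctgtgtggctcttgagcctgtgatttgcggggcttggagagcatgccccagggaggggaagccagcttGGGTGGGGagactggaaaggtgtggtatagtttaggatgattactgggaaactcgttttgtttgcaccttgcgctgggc
Cebpa distal region: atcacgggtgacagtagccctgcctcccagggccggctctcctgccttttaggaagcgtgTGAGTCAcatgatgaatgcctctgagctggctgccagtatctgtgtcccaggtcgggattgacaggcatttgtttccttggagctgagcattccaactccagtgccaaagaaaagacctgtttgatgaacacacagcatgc
Grhl3 upstream region: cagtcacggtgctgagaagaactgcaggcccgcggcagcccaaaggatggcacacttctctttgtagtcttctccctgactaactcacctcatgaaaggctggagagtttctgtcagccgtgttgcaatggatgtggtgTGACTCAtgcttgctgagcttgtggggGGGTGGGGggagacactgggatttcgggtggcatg
Cebpb distal region: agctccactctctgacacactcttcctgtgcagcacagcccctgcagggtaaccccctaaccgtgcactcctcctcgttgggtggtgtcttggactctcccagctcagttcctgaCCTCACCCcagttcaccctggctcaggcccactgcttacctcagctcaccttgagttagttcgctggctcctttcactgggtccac
Ovol1 WT-specific region: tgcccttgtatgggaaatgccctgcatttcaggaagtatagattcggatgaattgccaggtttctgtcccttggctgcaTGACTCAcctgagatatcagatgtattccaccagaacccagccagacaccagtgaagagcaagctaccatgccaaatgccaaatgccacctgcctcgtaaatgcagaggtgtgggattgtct
The capitals mark KLF matches (CCNCACCC or GGGTGNGG) in Klf4, where there are 2, in the distal Ovol1 region, in Zfp750 and in Cebpb. They mark an AP-1 match in Cebpa and in the WT-specific Ovol1 region, and both an AP-1 and a KLF match in Grhl3.

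Between 49856 (Mapk8-KO 2) and 69927 intervals (WT 1) had been called per library, and replicate 1 of each genotype was the deeper library. Reads per library are not in the lists, and depth was judged from the fragments at shared regions, which put WT 2 at 0.691, Mapk8-KO 1 at 1.12 and Mapk8-KO 2 at 0.644 of WT 1. The promoter of Mapk8 itself was called in all 4 libraries with 96, 73, 109 and 90 summit fragments, which does not test the deletion, since the promoter may remain when an exon is removed. Of 6 keratinocyte markers, 4 (Trp63, Epcam, Itga6 and Cdh1) had a promoter region called in every library and the remaining pair (Krt5 and Krt14) in some. None of 5 leukocyte marker promoters was called in any library. For endothelium 1 of 3 marker promoters was called in all 4 libraries, for fibroblasts 2 of 3 and for melanocytes 2 of 3. Those called in all 4 were Pecam1, with 33, 41, 43 and 22 fragments in WT 1, WT 2, Mapk8-KO 1 and Mapk8-KO 2. Pdgfra held 41, 26, 58 and 34 and Col1a1 22, 22, 24 and 11. Dct held 57, 40, 79 and 55 and Mlana 36, 23, 37 and 20. Kdr was called in 3 libraries, and Ptprc, Cdh5, Twist2 and Tyr had no call in any library. The antibody panel of the sort included CD45, CD31 and CD140a, markers of leukocytes, endothelium and fibroblasts, and the part of any such cells in the results was not tested. The region over the Krt14 start held 36 fragments in WT 1, had no call in WT 2, and held 199 and 109 in the Mapk8-KO pair, while the other region at this promoter held 38, 17 and 33 and was not called in Mapk8-KO 2. The promoter of Krt14 also drives the Cre transgene, and what part that plays was not tested.

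All 9 loci contained open regions in keratinocytes of both genotypes. Of the 142 regions, 75 (52.8%) were called in all 4 libraries, beside 48.6% of all merged regions. A further 24 were called in 3 libraries, 15 in 2 and 28 in only 1. Grhl3 had the most regions, 24, of which 12 were called throughout, and Cebpa followed with 23 and 11. Grhl1 had 19 regions with 9 called in every library, Prdm1 17 with 10, Gata3 14 with 8, Cebpb 14 with 8, Ovol1 13 with 8, Klf4 9 with 5 and Zfp750 9 with 4. The searched window differed with the length of the gene, from 101.5 kb at Cebpb to 191.3 kb at Prdm1, so these numbers are not densities. By the position of the strongest summit, 60 regions were in introns, 13 on exons and 69 between genes. All 9 regions of the Zfp750 window had this summit in introns of Tbcd, the gene in which Zfp750 is nested. All 9 of the Klf4 window had it between genes. The start regions of Zfp750 and Klf4 nevertheless reach over the starts of these genes.

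**Figure D1:**
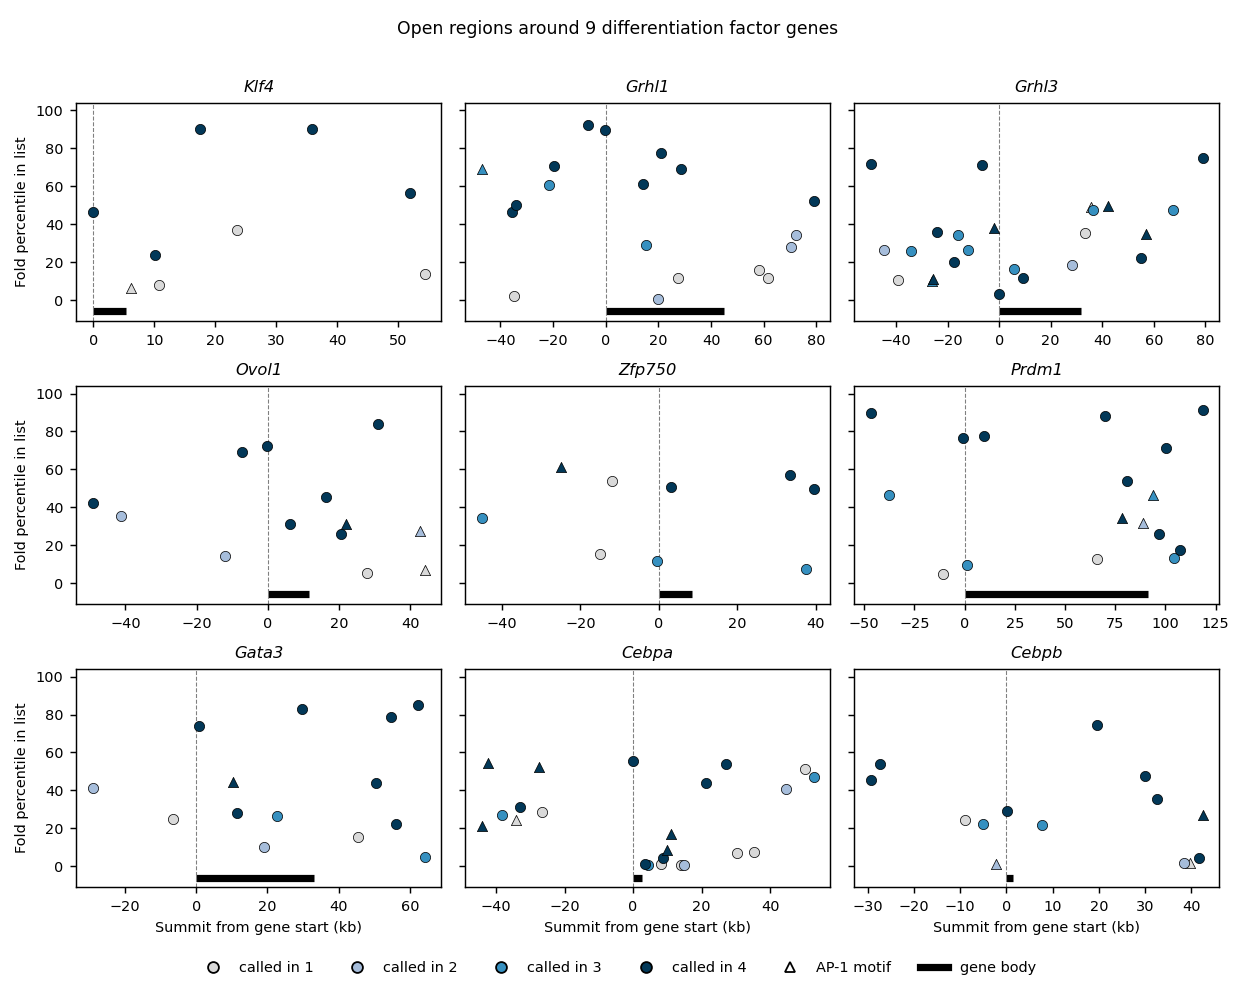
Position and rank of the 142 regions, one panel per gene. The horizontal axis is the distance of the strongest summit from the gene start in kb, positive in the direction of transcription; the vertical axis is the mean percentile of the region's fold enrichment among the intervals of the libraries that called it. Darker points were called in more of the 4 libraries, triangles held an AP-1 match and the black bar is the gene body. Regions of Cebpa just past the gene sit at the bottom of the scale, and Klf4, Grhl1 and Prdm1 have regions near the top.

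The highest ranked region outside promoters is given for each gene. It was chosen among regions called in all 4 libraries, by the highest percentile in its lowest library, so its being open throughout is no result. Ranks are percentiles of the authors' fold enrichment within each library's own list, and since the lists differ in length these are not on a fully common scale. At Grhl1 the region at chr12:24565347-24566047, 6795 bp upstream of the start, held 112, 72, 114 and 80 summit fragments in WT 1, WT 2, Mapk8-KO 1 and Mapk8-KO 2, and its percentile was 94.4, 92.1, 89.9 and 93.0. This was among the most open sites of the group, and the genotypes overlapped in rank. At Prdm1 the region at chr10:44409521-44410304, past the 3' end of the gene and 118588 bp from its start, held 74, 53, 91 and 34 fragments and ranked at 90.6, 90.2, 95.1 and 88.3. At Klf4 the region at chr4:55514759-55515180, 17561 bp downstream of the start, held 57, 39, 52 and 42 fragments and ranked at 93.2, 86.1, 89.8 and 91.0. Both again showed overlapping genotypes. The Klf4 region is the one with the pair of KLF matches printed above.

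At Gata3 the leading region, chr2:9827564-9828108, lay 62224 bp downstream of the start beyond the gene, with 95, 62, 103 and 61 fragments and percentiles between 80.9 and 89.0. At Cebpb the leading region, chr2:167708166-167709112, lay 19615 bp downstream with 82, 55, 96 and 55 fragments and percentiles between 60.1 and 80.1. In both regions the deeper library of each genotype held more fragments. At Zfp750 the leading region, chr11:121485612-121486158, held 75, 46, 66 and 36 fragments and at Grhl3 the region chr4:135580265-135580776, 6844 bp upstream, held 66, 39, 52 and 38. At Cebpa the leading region, chr7:35076592-35077100, lay 42463 bp upstream and held 66, 36, 80 and 43 fragments, with percentiles no higher than 64.2. At Ovol1 the leading region, chr19:5529408-5529979, 31047 bp downstream of the start, held 50, 30, 61 and 59 fragments and ranked at 80.0, 68.7, 88.8 and 98.0. Here both Mapk8-KO libraries ranked above both WT libraries, by a gap of 8.78 points.

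The number of regions called differed more between replicates than between genotypes. WT 1 called 127 of the 142 regions, WT 2 called 90, Mapk8-KO 1 called 120 and Mapk8-KO 2 called 93. The mean was 108.5 ± 26.2 (SD, n = 2) in WT and 106.5 ± 19.1 (SD, n = 2) in Mapk8-KO, a difference of 2 regions within the spread (exact two-sided permutation test, p = 1, with 0.333 the smallest p that 2 libraries against 2 allow). The first replicates of both genotypes had 10 regions in common that the second replicates lacked, and no region was called by WT 2 and Mapk8-KO 2 alone. Of the 24 regions missed by a single library, 12 were missed by WT 2 and 12 by Mapk8-KO 2. With every list shortened to the length of the shortest, the difference became -4.5 regions.

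**Figure D2:**
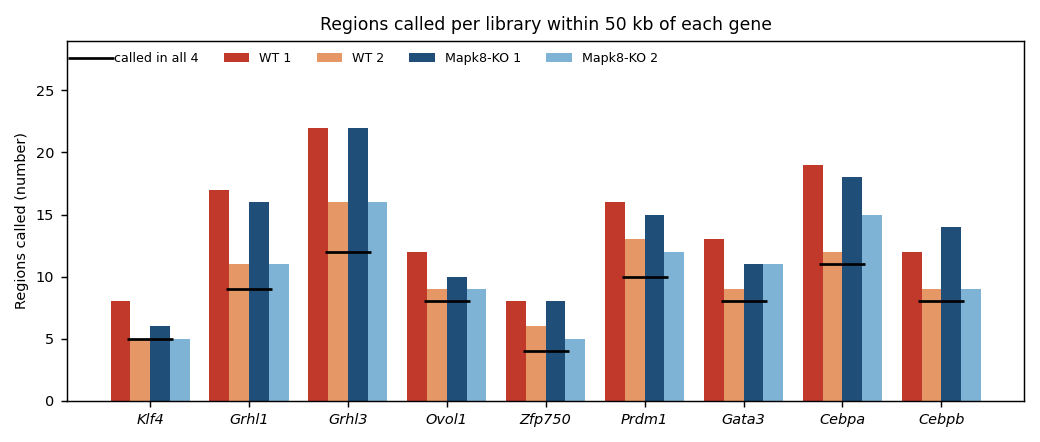
Number of regions called in each library (bars, from 0) within 50 kb of each of the 9 genes, with a black line at the number called in all 4. At all 9 genes WT 1 called more regions than WT 2, and Mapk8-KO 1 called more than Mapk8-KO 2 except at Gata3, where both called 11.

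Few regions were called by genotype. A region was counted as WT-specific when both WT libraries and no Mapk8-KO library called it, and 3 of the 142 met this, against 2.17% of all merged regions. They were chr12:24592103-24592387 in an intron of Grhl1 with 43 and 24 fragments in WT 1 and WT 2, chr19:5517754-5517985 downstream of Ovol1 with 18 and 12, and chr7:35163701-35163979 downstream of Cebpa with 18 and 17. The Ovol1 and Cebpa regions were weak in both WT libraries, at percentiles of 37.2 and 17.9 and of 37.2 and 43.9, and the Grhl1 region was at 1.10 and 0.155, with a local background of 13.5 fragments in WT 1. The WT-specific Ovol1 region is the one printed with an AP-1 match, and the Cebpa region held a KLF match. No region was Mapk8-KO-specific, where 1.65% of all merged regions were. Of the 142 regions these shares would come to few regions in any case, and the counts are near the background.

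Among the 75 regions called in all 4 libraries, 3 differed in rank, by the rule that the lowest percentile of one genotype lies at least 10 points above the highest of the other. The single region ranked higher in WT (2.64% of all such regions) was chr4:135575237-135575894, 1958 bp upstream of Grhl3, which held 61, 45, 50 and 35 fragments and ranked at 45.7, 44.8, 32.4 and 28.1 in WT 1, WT 2, Mapk8-KO 1 and Mapk8-KO 2. It carries the AP-1 and KLF matches shown above, 1607 bp from the annotated start site at its nearest edge. The region's log2 difference in scaled fragments was 0.35 ± 0.22 (SE, limma adjusted p = 0.605). Its fragment number did not pass the test, and no region was ranked higher in WT once every list was shortened to the same length or once ranks were taken among shared regions only.

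The 2 regions ranked higher in Mapk8-KO (3.77% of all such regions) were near Grhl3 and Cebpb. The Grhl3 region, chr4:135623053-135624844, lay 49711 bp upstream at the limit of the window and nearest to the start site of 1700029M20Rik. It held 47 and 38 fragments in WT and 93 and 48 in Mapk8-KO, and its percentile was 60.1 and 58.8 in WT against 86.4 and 80.7 in Mapk8-KO. The Cebpb region, chr2:167718669-167719023, lay in an intron of A530013C23Rik 29895 bp downstream of Cebpb, held 50, 37, 65 and 42 fragments and ranked at 37.4, 39.0, 55.0 and 59.8. Neither lies closest to the gene for which it was listed, and with windows of 25 kb no region was ranked higher in Mapk8-KO. With lists of equal length the count was 4.

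Each gene start had an open region within 2 kb, and these regions varied widely in height between the genes. Cebpa had the highest, with 156, 115, 177 and 110 summit fragments in WT 1, WT 2, Mapk8-KO 1 and Mapk8-KO 2. Grhl1 followed with 83, 58, 124 and 89, and Klf4 held 69, 51, 79 and 60. The region nearest to the Prdm1 start, with its summit 1046 bp upstream, held 63, 36, 72 and 50 fragments. The Cebpb start held 53, 39, 61 and 37 and the Ovol1 start 48, 34, 55 and 55. The start of Gata3 held 59, 36, 84 and 29. The weakest starts were those of Zfp750, with 34, 38 and 22 fragments and no call in WT 2, and of Grhl3, with 26, 21, 32 and 21. Grhl3 ranked between 2.08 and 5.62 in the 4 lists, so its start was near the limit of detection although 22 of its 24 regions were called in WT 1.

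Of the 8 gene start regions called in all 4 libraries, all 8 had the higher mean in Mapk8-KO in value, and none passed the test. Among all promoter regions called in every library, 65.3% were also higher in Mapk8-KO in value, and the count fell to 6 of 8 on the authors' fold enrichment and to 6 without WT 1. The largest difference was at Grhl1, at chr12:24571881-24572663, where fragments scaled to the depth of WT 1 were 83.0 and 83.9 in WT and 111 and 138 in Mapk8-KO, a ratio of 1.49 with a log2 difference of -0.57 ± 0.18 (SE, WT minus Mapk8-KO, limma adjusted p = 0.173). The libraries of the genotypes did not overlap in scaled fragments. On fold enrichment the Grhl1 difference was smaller, at -0.29 (limma adjusted p = 0.788). At Ovol1 the log2 difference was -0.42 ± 0.23 (adjusted p = 0.550) and rested on Mapk8-KO 2, with scaled fragments of 48.0, 49.2, 49.3 and 85.4. Cebpa and Cebpb were near equal, at -0.03 ± 0.16 and -0.04 ± 0.22, and turned to 0.02 and 0.09 on fold enrichment. Of the 8, both Mapk8-KO libraries lay above both WT libraries in scaled fragments at 3 (Grhl1, Prdm1 and Ovol1, the last by 49.3 over 49.2), and WT lay above Mapk8-KO at none. Among all regions called in 4 libraries 20.3% had this pattern toward Mapk8-KO, and among all promoters 27.9%. The reverse, with WT above, held for 20.3% of all regions and 10.8% of all promoters. Of the 75 member regions, 18 (24%) had Mapk8-KO above and 13 (17.3%) had WT above.

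**Figure D3:**
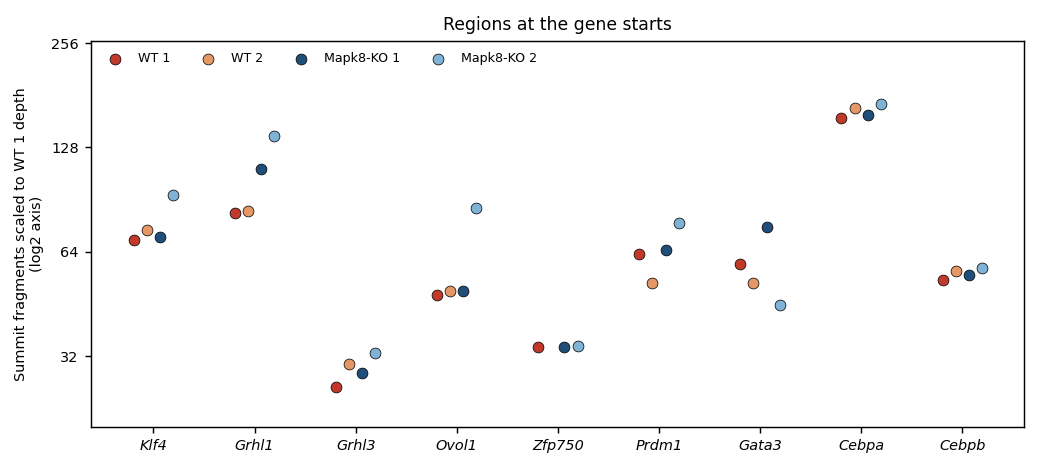
Fragments at the summit of the region at, or nearest to, each gene start, scaled to the depth of WT 1 (vertical axis, log2 scale), one point per library. Grhl1 has both Mapk8-KO points (111 and 138) above both WT points (83.0 and 83.9), Ovol1 has 1 high Mapk8-KO point (85.4), and Zfp750 has no WT 2 point because that library did not call it.

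The Grhl1 start is a CpG-rich promoter. The RefSeq promoter of Grhl1 (GRCm38.p6, chr12:24572037-24572336, forward strand), with 35 CG dinucleotides and a GC content of 75.3%, is printed because it lies inside the region with the largest start difference, and its CG dinucleotides are in capitals.
Grhl1 promoter: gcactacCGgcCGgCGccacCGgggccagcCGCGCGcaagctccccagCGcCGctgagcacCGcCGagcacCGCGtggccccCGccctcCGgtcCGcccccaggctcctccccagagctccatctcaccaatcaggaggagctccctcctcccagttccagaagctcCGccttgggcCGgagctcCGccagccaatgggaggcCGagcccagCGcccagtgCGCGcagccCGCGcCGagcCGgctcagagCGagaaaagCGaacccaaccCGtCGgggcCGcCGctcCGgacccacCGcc

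Prdm1 and Gata3 have further start sites inside the gene, and these were open in every library as well. The internal Prdm1 start, chr10:44458533-44459089, held 73, 51, 111 and 61 fragments, and the genotypes did not overlap once scaled for depth (73.0 and 73.8 in WT, 99.5 and 94.7 in Mapk8-KO). Its log2 difference of -0.40 ± 0.18 did not pass the test (adjusted p = 0.432). The internal Gata3 start, chr2:9878241-9878897, held 85, 57, 109 and 52 fragments with overlapping genotypes and a log2 difference of -0.09 ± 0.19. It stood higher in fragments than the Gata3 region at the outer start but lower in rank, between 16.5 and 39.2, with a local background of 14.9 fragments in WT 1.

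Over the whole set, fragment numbers did not separate the genotypes. Summit fragments were compared with limma over all 40159 regions called in every library, and 0 of the 75 regions passed an adjusted p of 0.05, beside 94 of all regions (0.234%). At an unadjusted p under 0.05 there were 7, of which 1 was higher in WT and 6 in Mapk8-KO, where 6.72% and 3.72% of all regions were. The median log2 difference over the 75 was -0.03 (WT minus Mapk8-KO), and over all regions it was -0.01. Of the 75, 32 were higher in WT and 43 in Mapk8-KO in value. The smallest adjusted p was that of the Grhl1 start. Each group had 2 libraries. In simulated data with as many regions, the test recovered 42.5% of regions changed 2-fold and 99.5% of those changed 4-fold. The spread between the simulated libraries was set in advance and not estimated from these data. These shares are therefore a rough guide only, and changes under 2-fold at these loci may have gone undetected.

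The regions at an unadjusted p under 0.05 were spread over 5 genes and are given as values. The one higher in WT was chr10:44449732-44450273 in an intron of Prdm1 with 43, 29, 38 and 15 fragments and a log2 difference of 0.59 ± 0.27 (limma adjusted p = 0.437), and it held AP-1, Grainyhead-like and C/EBP matches. Its difference rested in part on Mapk8-KO 2, which had the fewest fragments. Of those higher in Mapk8-KO, besides the Grhl1 start, the internal Prdm1 start and the Grhl3 region at 49711 bp, a pair was near Ovol1. The Ovol1 leading region at chr19:5529408-5529979 had a log2 difference of -0.60 ± 0.23 (limma adjusted p = 0.306). That difference rested in part on Mapk8-KO 2, with scaled fragments of 50, 43.4, 54.7 and 91.6, and was -0.26 without that library. The other, chr19:5567365-5568404, 7243 bp upstream, with 60, 51, 91 and 61 fragments, had -0.40 ± 0.20 (limma adjusted p = 0.467). The last was chr2:9860112-9861021 inside Gata3, with 50, 38, 74 and 53 fragments, 2 GATA matches and a difference of -0.49 ± 0.21 (adjusted p = 0.382).

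The limma calls depended on 1 library. Without Mapk8-KO 1, where the lone remaining Mapk8-KO library is assumed to vary like the WT pair, 4 of 75 member regions passed, all with more scaled fragments in Mapk8-KO 2, beside 1950 of all 40558 regions then tested (4.81%), a share near that of the members. They were the Grhl1 start (log2 difference -0.73), the Ovol1 start (-0.81), the leading Ovol1 region (-0.97) and an intronic Ovol1 region at chr19:5553904-5554600. In that last region the fragments were 25, 20, 18 and 40, so that Mapk8-KO 2, a shallow library, held the most and Mapk8-KO 1, the deepest, the fewest. Without any of the other 3 libraries none passed.

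**Figure D4:**
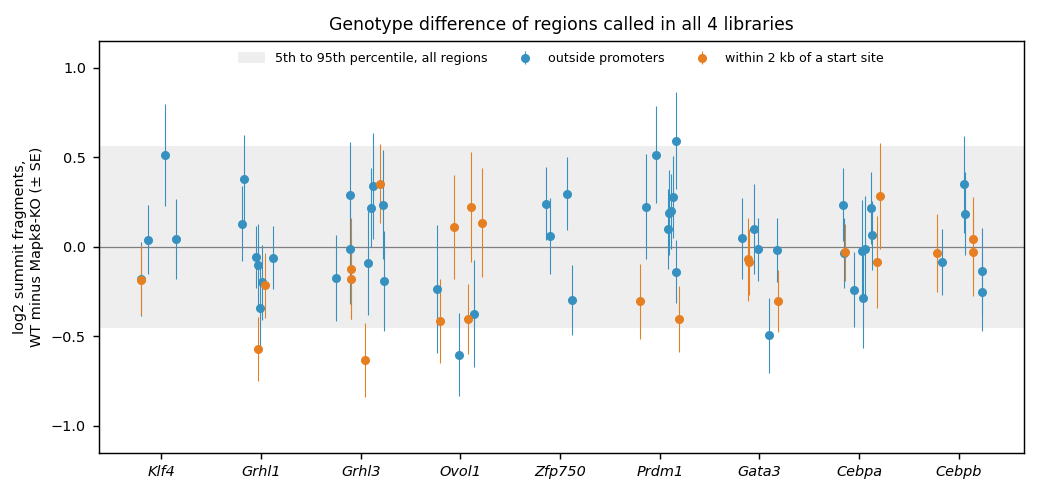
Log2 difference in summit fragments (WT minus Mapk8-KO, vertical axis, bars ± SE from limma) for the 75 regions called in all 4 libraries, by gene. Orange points lie within 2 kb of a start site and the grey band runs from the 5th to the 95th percentile of all 40159 regions, -0.45 to 0.56. The lowest points are at Grhl3 (-0.63) and Ovol1 (-0.60) and the highest at Prdm1 (0.59).

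By gene, the median difference ranged from -0.30 at Ovol1 (8 regions) to 0.20 at Prdm1 (10 regions). Ovol1 had 3 regions higher in WT and 5 higher in Mapk8-KO in value, and Prdm1 had 7 and 3. Grhl1 stood at 2 and 7, Grhl3 at 5 and 7, Gata3 at 2 and 6, Cebpa at 4 and 7, Cebpb at 3 and 5, Klf4 at 3 and 2 and Zfp750 at 3 and 1. These splits are a description with no test, since the regions share their libraries.

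The Cebpa locus shows how the authors' fold enrichment and the number of fragments can part. The region over the Cebpa start had the most fragments of all 9 starts but ranked only at 53.0, 57.4, 54.4 and 56.5. Immediately downstream, between 3615 and 14790 bp from the start, 8 regions were called in at least 1 library, and those called in WT 1 held 41 to 95 fragments there. Their percentiles in WT 1 were between 0.523 and 24.5. MACS2 divides the summit by a local background, and that background was 13.5 to 23.0 fragments in WT 1 at 8 regions of the Cebpa window, above the 95th percentile of all regions called in every library, 12.5. Only Gata3 (2 regions) and Grhl1 (1 region) had others above that level. In 4 of the 8 downstream Cebpa regions all libraries made a call, with log2 differences between -0.04 and 0.24, and none passed the test.

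**Figure D5:**
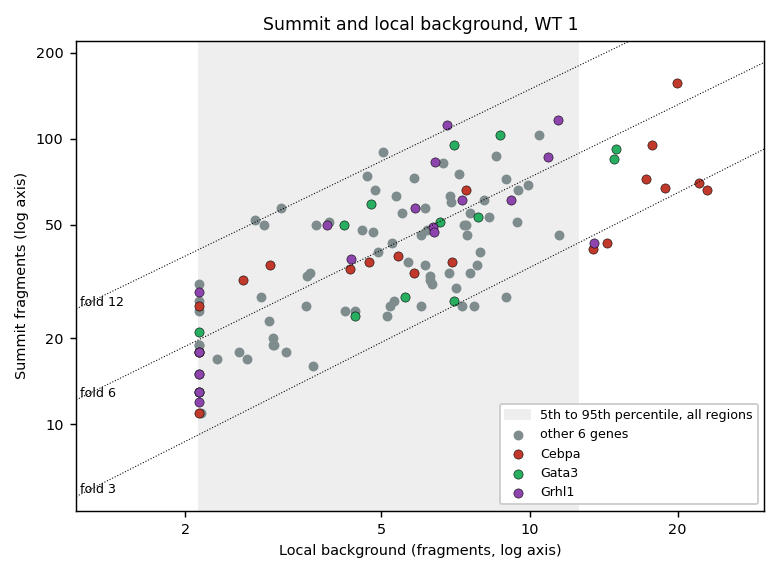
Summit fragments against the local background of MACS2 in WT 1 (both log axes) for the regions that this library called, coloured for Cebpa, Gata3 and Grhl1 and grey for the other 6 genes. Dotted lines join points of equal fold enrichment and the shaded band runs from the 5th to the 95th percentile of the background of all regions called in 4 libraries. Cebpa points lie to the right of the band at 41 or more fragments, where the same fold needs more fragments.

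Motif matches within 100 bp of the strongest summit, searched on both strands, described the sequence of the regions. The 5 motifs share no word, though matches may overlap. AP-1 matches were present in 25 of 142 regions (17.6%, Wilson 95% interval 12.2 to 24.7%, which covers counting error only) and in 23.7% of all merged regions. KLF matches (CCNCACCC) were present in 31 regions (21.8%) and in 14.2% of all. C/EBP matches (TTGCNNAA) were present in 13 (9.15%) beside 11.4%, GATA matches (AGATAA) in 8 (5.63%) beside 10.2%, and Grainyhead-like matches (AACCNGTT) in 5 (3.52%) beside 3.17%. The order among the motifs was therefore different from that in the whole set, with KLF the most frequent here and AP-1 the most frequent overall. The regions also had a higher median GC content, 53.5% against 49.4%, and a KLF match is made mostly of C. What part base composition plays in these shares was not tested.

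AP-1 matches were found around every gene. Grhl3 had 6 among its 24 regions and Cebpa 6 among 23, Ovol1 had 3 among 13, Cebpb 3 among 14 and Prdm1 3 among 17, and Klf4, Grhl1, Zfp750 and Gata3 had 1 each. None lay at a gene start. Of the 25 regions with a match, 14 were called in all 4 libraries, and their median log2 difference was -0.02. Over all 9815 regions with an AP-1 match that were called in all 4 libraries, it was 0.13. Of these 14, 6 were higher in WT in value. The sets differ also in position, and the difference between them was not tested.

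The same counts were made around other genes of epidermal differentiation, with the lists taken as descriptions. Around 14 genes, among them Trp63, Grhl2 and Klf5, there were 270 regions, of which 140 (51.9%) were called in all 4 libraries. Of the 270, 7 were WT-specific and 1 was Mapk8-KO-specific (2.17% and 1.65% over all regions), and of the 140, 4 ranked higher in each genotype (2.64% in WT and 3.77% in Mapk8-KO over all). None passed limma, and at an unadjusted p under 0.05 there were 6 higher in WT and 3 higher in Mapk8-KO, where the regions of the 9 genes had 1 and 6; over all regions the shares were 6.72% and 3.72%. Around 12 genes of differentiated keratinocytes, such as Krt10, Ivl, Lor and Flg, there were 154 regions, of which 81 (52.6%) were called in all 4, 5 were WT-specific and 3 Mapk8-KO-specific. Of the 81, 1 passed limma, where 0.234% of all regions did. It was chr3:92455147-92455541 in the window of Sprr1b, a cornified envelope gene, and nearest to the start of Sprr3. It held 86, 60, 45 and 20 fragments in WT 1, WT 2, Mapk8-KO 1 and Mapk8-KO 2 (log2 difference 1.29, limma adjusted p = 0.00574). Both WT libraries held more fragments there than either Mapk8-KO library. No region around the 9 transcription factor genes passed that threshold, and at such a share few would in a list of this size. Without the variance trend, or on fold enrichment, limma called 0 regions of the whole set, so the Sprr1b call was lost there.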

How the data were processed

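ATAC-seq peak lists of 4 libraries (2 WT, 2 Mapk8-KO, grouped by the genotype in their labels) were used. Per the study's methods, the authors aligned paired reads to mm10 with Bowtie2, filtered them and called peaks in each library separately with MACS2. The labels' processing notes also name STAR 2.5.3 and Trimmomatic 0.36, whose role for these files is not given in the sources used here. The deposited lists hold, per peak, a fold enrichment over local background (a ratio), −log10 p and −log10 q values, a score derived from q and the summit offset. No deposited q exceeded 0.00970, below the 0.05 named in the methods, and a Tn5 shift is not stated. Weak open sites are therefore missing from the shallower lists, and reads per region were not analysed here.

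The summit pileup in fragments was recovered from each fold and p value, and came out whole within 0.05 for 99.996 to 99.9986% of intervals. Percentiles are shares of a library's intervals with an equal or lower fold. For regions called in all 4 libraries, log2 pileups were centred on the median log ratio to the region mean and compared with limma 3.58.1 (variance trend, Benjamini-Hochberg adjustment over 40159 regions, R 4.3.3), a test checked on simulated data. This differs from the authors' own test on reads. Start sites came from GENCODE M21 basic transcripts and gene starts (81487), and promoters from RefSeq (7 of the 9 genes matched). Python 3.11.15 was used for the rest.

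Regions named are those at each gene start, the region outside promoters with the highest percentile in its lowest library, all genotype-specific regions, all past the rank gap of 10 points or an adjusted p of 0.05, and those at an unadjusted p under 0.05 or shown to depend on 1 library, which were added after their values were seen. So were the internal start sites of Prdm1 and Gata3, the regions downstream of Cebpa and the printed WT-specific Ovol1 and Grhl1 promoter sequences. The genes and lists were chosen with earlier results of these data known. A gene of the list of other regulators is not reported here. The study states that libraries were independent samples. Between same-numbered libraries of the genotypes, the replicate differences correlated at r = 0.0392 across 40159 regions, so the numbers were not taken as pairs. Alternatives varied the list length, peak threshold, overlap, distance, rank rule, normalization and left-out library.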

Additional observations from a re-analysis of the deposited data

How the results depend on the processing

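Of 282 alternative values for 27 results, 57 of the summary values kept their direction and side of the threshold, or for counts stayed close to the reported count, while 42 moved and 4 reversed. Of the values for single regions and gene starts, 167 stayed, 9 reversed and 3 passed the threshold. Genotype-specific counts are small, so single regions moved them. Mapk8-KO-specific regions numbered 1 with 100 kb windows, with equal list lengths or where peaks had to cover 50% of a region. WT-specific regions numbered 1 with 25 kb windows, with only regions nearest to a start of the 9 genes or with equal list lengths, and 5 with 100 kb windows. The difference in regions called became -0.5 for nearest start sites and -4.5 with equal list lengths. Regions ranked higher in Mapk8-KO numbered 0 with 25 kb windows or nearest start sites, 5 when ranked among shared regions, 9 at a gap of 5 points, 1 at 20 points, 4 with equal list lengths and 1 at 50% cover. Those ranked higher in WT numbered 0 among shared regions, 2 at 5 points, 0 at 20 points and 0 with equal list lengths. Over all regions limma called 0 without the variance trend (3898 at an unadjusted p under 0.05), 0 on fold enrichment (2698) and 243 with each library centred on its own median, an alternative chosen after seeing the data, which also moved the median difference of the 75 regions to -0.0765. With the replicate number as a block limma called 309 regions, 0 of them among the 75, and 4 regions ranked higher in Mapk8-KO; in the absence of pairing this is only a change of model. Log2 differences near 0 changed sign: the Cebpa start became 0.0414 with cyclic loess and 0.0198 on fold enrichment, the Cebpb start 0.0861 and the internal Gata3 start 0.0332 on fold enrichment. The cause of these changes was not tested.

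Leaving out each library in turn gave a call difference of -16.5 to 20.5, 3 to 16 WT-specific and 0 to 12 Mapk8-KO-specific regions, 2 to 12 ranked higher in WT and 8 to 13 in Mapk8-KO, where fewer libraries must meet each rule. Limma called 13 (without WT 2) to 1950 regions (without Mapk8-KO 1), of the member regions 0 to 4, and the median difference was -0.0706 to -0.0158. The log2 difference ranged from -0.0820 to 0.0191 at the Cebpa start, -0.0689 to 0.0134 at the Cebpb start, -0.250 to 0.0546 at the internal Gata3 start and -0.469 to 0.302 at the outer one. The 75 member regions tested had medians of 53, 37, 61 and 37 summit fragments in WT 1, WT 2, Mapk8-KO 1 and Mapk8-KO 2. With 2 libraries a group, differences under 2-fold may have gone undetected.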
